A study of Homo sapiens with 36 samples.

Results

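Messenger RNA of 8 genes for fatty acid desaturases and elongases was followed in HepG2 cells given the fatty acids DHA (docosahexaenoic acid) or PRO (propionate), the phenolic acid PCA (protocatechuic acid), or DHA with one of the others. The desaturases were SCD, FADS1, FADS2 and FADS3, and the elongases were ELOVL1, ELOVL2, ELOVL5 and ELOVL6. They were taken by symbol from a table of 18932 genes, as a set chosen with earlier results of these data known. All 8 passed the filter on low counts at both times. HepG2 is an established human hepatoma line, and the cells were kept without serum during the treatment. Each of 12 groups held 3 libraries, and each library pooled the RNA of parallel cultures from 1 independent experiment. The groups were vehicle control (Ctrl), 50 µM DHA, 70 µM PRO, 20 µM PCA, DHA+PRO and DHA+PCA, each sampled at 6 h and at 24 h. DHA is a long-chain polyunsaturated fatty acid and was given bound to albumin, PRO is a short-chain fatty acid made by gut bacteria, and PCA is formed from plant polyphenols. The line comes from 1 tumour and the treatments were given to cells in culture, which limits both as a model of liver.

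Fatty acids are lengthened and desaturated at the endoplasmic reticulum while they are bound to coenzyme A. An elongase of the ELOVL family performs the first and rate-limiting step of each elongation cycle, and a desaturase places a double bond at a fixed carbon with electrons passed on by cytochrome b5. In liver, SCD and ELOVL6 act on the saturated products of fatty acid synthase and yield oleate and related monounsaturated acids, whereas FADS2, FADS1, ELOVL5 and ELOVL2 convert dietary essential fatty acids into long-chain polyunsaturated acids, of which DHA is an end product. Several of these genes are textbook targets of the transcription factor SREBP-1, and polyunsaturated fatty acids are known to lower its activity in liver.

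Library totals ran from 4659744 to 42326734 counts with a median of 7034010, and the deepest library, DHA+PRO 24 h replicate 2, held 6.22 times the median of the other 24 h libraries. The least counted member, FADS3, had at least 89 counts in every library. Levels below are RPKM (reads scaled to counted length and library total), which can be set side by side between genes, and differences are log2 fold changes of an edgeR quasi-likelihood fit. A gene was called when its adjusted p was at most 0.05 over all genes tested and its average log2 CPM (counts scaled to the library total) was above 0. The hepatocyte markers matched the label: ALB had a median of 11657 RPKM and AFP of 4094 RPKM over the 36 libraries. Of the 12 markers of other cell types, none was at 0 in all 36 libraries, LYZ and CD68 were at 491 to 1679 RPKM and 17.6 to 38.5 RPKM, and the other 10 together came to 0.822 to 5.29 RPKM. LYZ fell with DHA at 24 h (pooled log2 fold change -0.28, adjusted p = 0.0185), and its part in the results was not tested.

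The positions are those of human build hg19 as the deposited table gives them. SCD (NM_005063), the delta-9 desaturase, lies on the plus strand at chr10:102106772-102124588. FADS1 (NM_013402), FADS2 (NM_001281501) and FADS3 (NM_021727) lie side by side within 91921 bases of chromosome 11, at chr11:61567097-61584529 on the minus strand, chr11:61583675-61634826 on the plus strand and chr11:61640995-61659017 on the minus strand. The spans of FADS1 and FADS2 overlap by 855 bases on opposite strands, and the library kit did not mark strand, so reads from that overlap could not be told apart. ELOVL1 (NM_022821) lies at chr1:43829068-43833745, ELOVL2 (NM_017770) at chr6:10980993-11044624, ELOVL5 (NM_001242830) at chr6:53132196-53213977 and ELOVL6 (NM_024090) at chr4:110970229-111119820, all 4 on the minus strand.

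The stretches of hg19 just upstream of 3 members that fell with DHA at 24 h, and of FADS3, which was not called, are shown so that their promoters can be compared. Each was read from the GRCh37 (hg19) primary assembly as far as 250 bases before the deposited start and is written 5′ to 3′ on the strand of the gene, without bases of annotated exons, and capitals mark CCAAT and GGGCGG boxes on either strand. FADS2 is not shown because its deposited start lies within the FADS1 gene.
SCD, chr10:102106522-102106771, plus strand: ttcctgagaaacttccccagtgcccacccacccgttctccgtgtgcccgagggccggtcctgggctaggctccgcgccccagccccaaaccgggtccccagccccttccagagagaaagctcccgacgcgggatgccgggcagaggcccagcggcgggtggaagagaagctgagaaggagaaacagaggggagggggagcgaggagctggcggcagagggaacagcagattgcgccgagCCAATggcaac
FADS1, chr11:61584670-61584779, minus strand: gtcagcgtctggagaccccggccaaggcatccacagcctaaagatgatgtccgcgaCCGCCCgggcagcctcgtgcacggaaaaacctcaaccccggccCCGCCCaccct
ELOVL6, chr4:111119821-111119997, minus strand: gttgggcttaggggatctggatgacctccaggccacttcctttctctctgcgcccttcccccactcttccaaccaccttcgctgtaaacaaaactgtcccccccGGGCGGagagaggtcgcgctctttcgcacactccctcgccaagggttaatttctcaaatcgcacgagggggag
FADS3, chr11:61659018-61659267, minus strand: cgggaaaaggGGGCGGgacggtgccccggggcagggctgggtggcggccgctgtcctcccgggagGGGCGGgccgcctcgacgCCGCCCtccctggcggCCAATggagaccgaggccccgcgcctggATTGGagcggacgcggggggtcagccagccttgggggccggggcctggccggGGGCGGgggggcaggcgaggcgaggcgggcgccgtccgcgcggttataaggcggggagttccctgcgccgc
The SCD stretch held 1 CCAAT box, which ended 7 bases before the deposited start, and no GGGCGG box. FADS1 held 2 GGGCGG boxes, ELOVL6 held 1, and FADS3 held 4 beside 2 CCAAT boxes. Among the members not shown, ELOVL1 and ELOVL2 held 4 and 3 GGGCGG boxes in their full windows. Over the full windows of 250 bases, which include exon bases left out above, CCAAT stood in 32.7% and GGGCGG in 52.2% of 18923 windows of all genes. The letters TCACNCCAC, a form of the sterol regulatory element, were found on neither strand in any of the 8 members' windows and in 0.994% of all windows. The E-box letters CANNTG were found in the windows of ELOVL1, ELOVL2 and ELOVL5 and in 58.7% of all windows. A match here is a run of letters and not a measured site, and a window without a match says only that these letters are not in it.

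In Ctrl cells the members covered a wide range of RNA levels, with SCD far above the rest. At 24 h the mean level was 760.2 ± 9.78 RPKM (SD, n = 3) for SCD, 85.6 ± 9.43 for FADS1, 68.7 ± 6.32 for FADS2, 65.2 ± 6.83 for ELOVL5, 51.9 ± 5.74 for ELOVL2, 38.2 ± 1.52 for ELOVL1, 35.2 ± 1.5 for ELOVL6 and 10 ± 1.39 for FADS3. Of 17208 genes ranked by this level, 64 stood above SCD. The libraries of FADS2 and ELOVL5, of ELOVL5 and ELOVL2, and of ELOVL1 and ELOVL6 overlapped, and the other neighbours in this order did not. At 6 h the order differed. SCD again came first with 406 ± 64.3 RPKM, ELOVL2 followed with 68 ± 2.35, FADS1 and ELOVL5 overlapped at 59.2 ± 5.20 and 57.1 ± 3.08, and ELOVL1 had 44.1 ± 2.80. FADS2 with 28.3 ± 2.22 RPKM and ELOVL6 with 19 ± 1.88 stood near the lower end, above FADS3 with 10.9 ± 0.265.

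**Figure D1:**
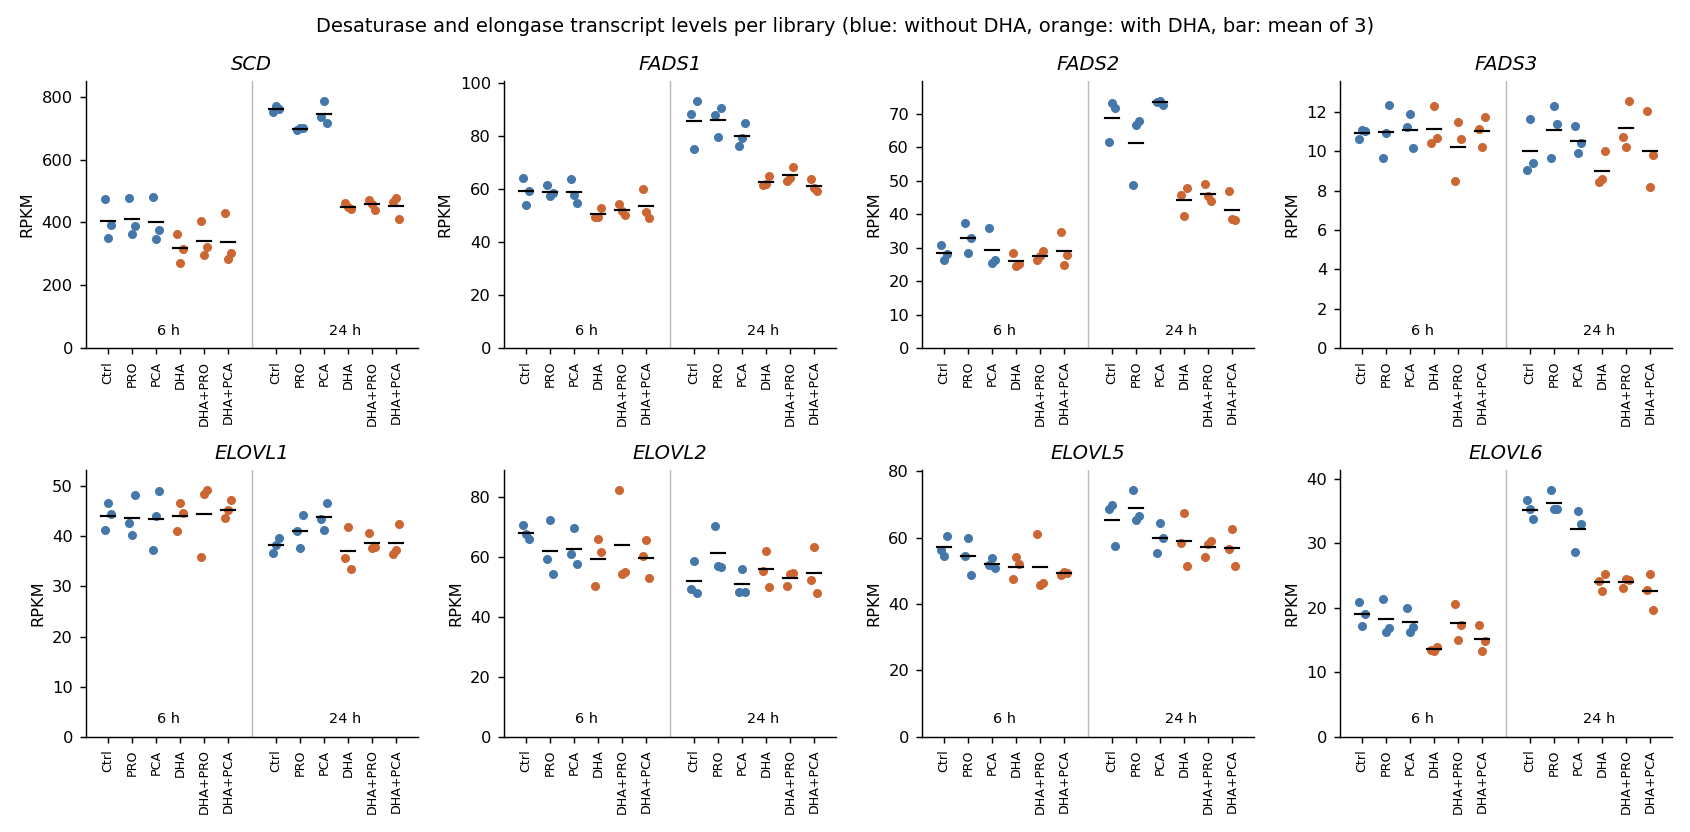
RPKM of each of the 8 genes in every library (points) of the 12 groups, with blue for groups without DHA, orange for groups with DHA and a bar at the mean of 3 libraries. At 24 h the orange points of SCD, FADS1 and ELOVL6 lie below every blue one, and those of FADS2 overlap them through 1 PRO library at 48.8 RPKM.

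The first question was whether a supply of DHA lowered the RNA of these desaturases and elongases. At 24 h it was lower with DHA for SCD, FADS1, FADS2 and ELOVL6. Pooling the 3 comparisons of a group with DHA against its counterpart without it, 4 of the 8 members fell and none rose, where 0.942% of the 11893 genes tested fell and 1.23% were called in all. With the replicate number, which stands for the independent experiment, as a block, these 4 members were called among 367 genes in place of 146. SCD had the lowest p of all genes tested. The study itself singled out SCD as lowered by DHA in these libraries, so its fall is not independent evidence. The 8 members were chosen with earlier results of these data known, so their count is not independent evidence either. In whole-cell RNA a lower level per cell cannot be told apart from fewer cells that express the gene.

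SCD, which makes oleate from stearate, fell furthest. At 24 h its RPKM in replicates 1, 2 and 3 were 750.1, 769.6 and 761 in Ctrl, 693, 701 and 699.8 in PRO and 737, 787 and 716 in PCA. With DHA they were 461, 448 and 443 in DHA, 472, 459.8 and 439.8 in DHA+PRO and 466, 478 and 411 in DHA+PCA. Every library with DHA lay below every library without it, and the 3 groups with DHA overlapped each other. The pooled log2 fold change was -0.70 ± 0.043 (SE, adjusted p = 1.84e-10), with a 95% interval of -0.78 to -0.61. SCD thus fell by 38.3% on average.

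FADS2, the delta-6 desaturase that opens the route from essential to long-chain polyunsaturated acids, came next among the desaturases. Its 24 h RPKM were 61.5, 73.1 and 71.6 in Ctrl, 48.8, 66.7 and 67.9 in PRO and 73.5, 73.8 and 72.7 in PCA. With DHA they were 45.6, 39.6 and 47.8 in DHA, 48.9, 45.4 and 43.9 in DHA+PRO and 46.9, 38.6 and 38.2 in DHA+PCA. The highest library with DHA, in DHA+PRO, at 48.9 RPKM, lay just above the lowest without it, PRO replicate 1, and all other libraries were separate. The pooled log2 fold change was -0.62 ± 0.066 (SE, adjusted p = 1.37e-06), a fall by 35.1%.

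FADS1, the delta-5 desaturase that acts later on the same route and yields arachidonic and eicosapentaenoic acid, fell less. Its 24 h RPKM were 88.4, 75 and 93.2 in Ctrl, 88, 79.5 and 90.6 in PRO and 76.1, 79.4 and 84.8 in PCA. With DHA they were 61.6, 61.9 and 64.9 in DHA, 62.8, 64.3 and 68.4 in DHA+PRO and 63.9, 60.2 and 59.1 in DHA+PCA. The sides with and without DHA did not overlap, and the pooled log2 fold change was -0.41 ± 0.05 (SE, adjusted p = 1.14e-05), a fall by 24.9%. FADS3, the third gene of the cluster, ranged from 9.07 to 12.3 RPKM (median 10.4) without DHA and from 8.18 to 12.6 RPKM (median 10.0) with DHA. Both ranges overlapped nearly whole, and its log2 fold change was -0.08 (adjusted p = 0.855) with a 95% interval of -0.26 to 0.11.

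Among the elongases ELOVL6, which lengthens palmitate to stearate, the substrate of SCD, was the one that fell. Its 24 h RPKM were 36.7, 35.3 and 33.7 in Ctrl, 38.3, 35.3 and 35.3 in PRO and 28.6, 35 and 32.9 in PCA. With DHA they were 24.2, 22.5 and 25.3 in DHA, 23.1, 24.4 and 24.3 in DHA+PRO and 22.8, 25.3 and 19.7 in DHA+PCA. All 9 libraries with DHA lay below all 9 without it, and the pooled log2 fold change was -0.55 ± 0.056 (SE, adjusted p = 6.15e-07), a fall by 31.9%.

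The other 3 elongases were not called. ELOVL5, which lengthens the products of FADS2, ranged from 55.3 to 74.5 RPKM (median 65.4) without DHA and from 51.3 to 67.3 RPKM (median 58.1) with DHA, with a log2 fold change of -0.16 (adjusted p = 0.275) and a 95% interval of -0.29 to -0.04. ELOVL2, which carries out the later elongations before DHA, ranged from 48 to 70.1 RPKM (median 56) without DHA and from 48 to 63.4 RPKM (median 54.2) with DHA, with a log2 fold change of -0.00 (adjusted p = 0.998) and an interval of -0.13 to 0.13. ELOVL1, which makes saturated and monounsaturated very long chains, ranged from 36.6 to 46.7 RPKM (median 41.1) without DHA and from 33.5 to 42.4 RPKM (median 37.7) with DHA, with a log2 fold change of -0.10 (adjusted p = 0.615) and an interval of -0.22 to 0.02. The intervals of ELOVL2 and ELOVL1 do not reach the falls measured for FADS1 or ELOVL6, and that of ELOVL5 reaches -0.29.

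Exact two-sided permutation tests of the log2 levels, with DHA labels exchanged within each pair of groups, gave an unadjusted p = 0.00025 for SCD, FADS1 and ELOVL6, the smallest value that 8000 arrangements allow. The same exact tests, unadjusted, gave p = 0.0005 for FADS2, 0.022 for ELOVL5, 0.0585 for ELOVL1, 0.366 for FADS3 and 0.989 for ELOVL2. Groups without overlap at this contrast were found for SCD, FADS1 and ELOVL6, and for 0.37% of all genes. The library numbers in the labels form a lower series (n = 12 at 24 h) and a higher one (n = 6). Within them the log2 difference was -0.67 and -0.75 for SCD, -0.37 and -0.48 for FADS1, -0.57 and -0.71 for FADS2 and -0.55 and -0.56 for ELOVL6.

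**Figure D2:**
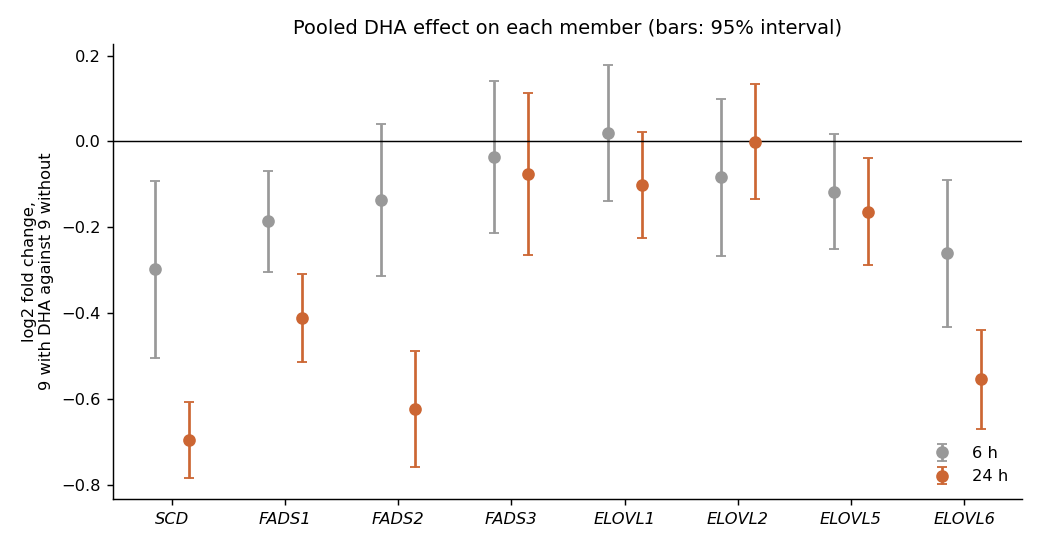
Pooled log2 fold change of each gene with DHA against without DHA, with its 95% interval, at 6 h (grey) and 24 h (orange). The intervals of SCD, FADS1, FADS2 and ELOVL6 at 24 h lie below 0. Their estimates run from -0.70 for SCD to -0.41 for FADS1, and ELOVL2 sits at 0. The 24 h interval of ELOVL5, which was not called, also lies below 0, as do those of 3 members at 6 h.

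The effect of DHA was also fitted separately on each background. In DHA against Ctrl at 24 h, 4 members fell, beside 0.193% of all genes called. The log2 fold changes were -0.75 ± 0.075 (SE, adjusted p = 2.77e-06) for SCD, -0.63 ± 0.11 (SE, adjusted p = 0.00895) for FADS2, -0.55 ± 0.097 (SE, adjusted p = 0.0073) for ELOVL6 and -0.44 ± 0.086 (SE, adjusted p = 0.0212) for FADS1. SCD kept its call in all 18 fits without 1 library, ELOVL6 in 15, FADS2 in 14 and FADS1 in 13. FADS1 also lost its call when only the groups compared were fitted (adjusted p = 0.0534). SCD was the only member called without DHA replicate 1 (adjusted p = 0.0524 for FADS2 and ELOVL6 and 0.184 for FADS1) or DHA replicate 2 (0.122, 0.0934 and 0.123), and 2 members were called without Ctrl replicate 1 or 3.

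On the PRO background, DHA+PRO against PRO, 3 members fell, beside 0.227% of all genes called. SCD changed by -0.61 ± 0.074 (SE, adjusted p = 0.000131) on the log2 scale, ELOVL6 by -0.59 ± 0.095 (SE, adjusted p = 0.00261) and FADS1 by -0.40 ± 0.086 (SE, adjusted p = 0.0493). FADS2 missed the threshold at -0.40 ± 0.11 (SE, adjusted p = 0.242), and it was called at -0.55 (adjusted p = 0.0116) without PRO replicate 1, its lowest library without DHA. FADS1 kept its call in 4 of the 18 fits without 1 library (highest adjusted p = 0.266), and SCD and ELOVL6 kept theirs in all 18. With the deepest library thinned FADS1 lost its call (adjusted p = 0.0607), as it did with DESeq2 scaling (adjusted p = 0.0508). No member was called when only the 6 libraries of these groups were fitted, with adjusted p = 0.0517 for SCD, 0.0805 for ELOVL6 and 0.38 for FADS1.

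On the PCA background, DHA+PCA against PCA, 4 members fell, beside 0.277% of all genes called. FADS2 changed by -0.83 ± 0.11 (SE, adjusted p = 0.000267), SCD by -0.73 ± 0.075 (SE, adjusted p = 1.00e-05), ELOVL6 by -0.52 ± 0.098 (SE, adjusted p = 0.0124) and FADS1 by -0.40 ± 0.086 (SE, adjusted p = 0.0463). SCD and FADS2 kept their calls in all 18 fits without 1 library. FADS1 kept its call in 3 (highest adjusted p = 0.307, without PCA replicate 3) and ELOVL6 in 14, losing it without PCA replicate 2 or 3 or DHA+PCA replicate 1 or 3 (0.0811 to 0.173). Under upper quartile scaling FADS1 also lost its call (adjusted p = 0.0599). Against Ctrl, SCD, FADS1, FADS2 and ELOVL6 fell in DHA+PRO, beside 0.395% of all genes called, and in DHA+PCA, beside 0.286%. These comparisons share the Ctrl libraries with DHA against Ctrl. In DHA+PRO, leaving out Ctrl replicate 3 or DHA+PRO replicate 2 or 3 ended the calls of FADS1 and FADS2, and FADS1 kept its call in 7 of 18 such fits (highest adjusted p = 0.263).

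No member was called with PRO or PCA alone. In PRO against Ctrl at 24 h no member and no gene of the 11893 tested was called by edgeR's quasi-likelihood test, where 716 genes had an unadjusted p under 0.05. The DESeq2 Wald test called 1 gene, edgeR's likelihood ratio test 2 and the fit without a filter on low counts 10, none of them a member. The log2 fold changes of the members ran from -0.18 for FADS2 to 0.23 for ELOVL2. The interval for SCD was -0.28 to 0.02, and its 3 PRO libraries nevertheless lay below its 3 Ctrl libraries, as did those of 3.72% of all genes. In PCA against Ctrl no gene was called either, with 454 genes at an unadjusted p under 0.05, and the members ran from -0.12 for ELOVL6 to 0.20 for ELOVL1. The intervals for SCD and FADS1 were -0.17 to 0.13 and -0.27 to 0.09. No member reached an unadjusted p under 0.05 in either comparison.

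Whether PRO or PCA altered the effect of DHA was asked through the interaction. By edgeR's quasi-likelihood test no gene was called for DHA by PRO, with 595 genes at an unadjusted p under 0.05, nor for DHA by PCA, with 210. Without the filter on low counts 6 genes, no member among them, were called for DHA by PRO. For SCD the DHA by PRO term was 0.15 with an interval of -0.07 to 0.36, and the DHA by PCA term was 0.02 with an interval of -0.19 to 0.24. For FADS2, with a log2 fold change of -0.40 on PRO, where it was not called, and -0.83 on PCA, the terms were 0.23 (-0.10 to 0.56) and -0.20 (-0.53 to 0.13). The lowest adjusted p of a member was 0.955. The intervals of FADS2 leave room for differences as large as the pooled DHA effect on FADS1, and those of SCD do not. DHA+PRO and DHA+PCA against DHA gave no called gene by the quasi-likelihood test, with 527 and 276 genes at an unadjusted p under 0.05. For DHA+PRO against DHA the DESeq2 Wald test called 8 genes and the fit with the replicate block 1, none of them a member. In 318 alternative fits of the comparisons of PRO, PCA and the interactions at both times, no member was called.

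At 6 h no member was called with DHA without the replicate block, and SCD and ELOVL6 were called with it. In the pooled comparison without the block 0.202% of 11872 genes, 24 in all, were called, and 3 members had an unadjusted p under 0.05 where 342 genes did. The RPKM of SCD were 476, 349 and 392 in Ctrl, 478, 364 and 389.9 in PRO and 482, 347 and 375 in PCA. With DHA they were 364, 272 and 316 in DHA, 404, 296 and 322 in DHA+PRO and 430.3, 284 and 301 in DHA+PCA. Replicate 1 was the highest in all 6 groups, and the ranges with and without DHA overlapped. Within same-numbered pairs SCD was lower with DHA in 9 of 9. The pooled log2 fold change of SCD was -0.30 ± 0.099 (SE, adjusted p = 0.963), and with the block it was -0.30 (adjusted p = 3.72e-05). The RPKM of ELOVL6 were 20.9, 17.2 and 19 in Ctrl, 21.4, 16.3 and 16.9 in PRO and 19.9, 16.3 and 17.1 in PCA. With DHA they were 13.4, 13.3 and 13.9 in DHA, 20.6, 15 and 17.2 in DHA+PRO and 17.3, 13.3 and 14.9 in DHA+PCA. The 3 DHA libraries lay below every Ctrl library, as they did for 4.56% of all genes, and those of DHA+PRO overlapped Ctrl. On the log2 scale ELOVL6 changed by -0.26 ± 0.082 (SE, adjusted p = 0.752) pooled and -0.50 ± 0.14 (SE, adjusted p = 1.00) in DHA against Ctrl. With the block it was called in both (adjusted p = 0.0269 and 0.033), and it was lower with DHA in 8 of 9 same-numbered pairs. The block called 64 genes in the pooled comparison, in place of 24. FADS1 ranged from 53.9 to 64.3 RPKM (median 58.4) without DHA and from 49.2 to 60 RPKM (median 51.5) with DHA, and its log2 fold change was -0.19 (adjusted p = 0.642). FADS2 ranged from 25.3 to 37.2 RPKM (median 28.4) without DHA and from 24.5 to 34.7 RPKM (median 27.5) with DHA, and its log2 fold change was -0.14 (adjusted p = 1.00). The other 4 members had log2 fold changes between -0.12 for ELOVL5 and 0.02 for ELOVL1. Without the block no member was called in the single comparisons either, where 0.0168% of genes were called for DHA against Ctrl, 0.00842% for DHA+PRO against PRO, 0.0253% for DHA+PCA against PCA, and 0.0168% and 0.0168% for DHA+PRO and DHA+PCA against Ctrl.

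At 6 h no member was called for PRO, PCA or the interactions, and no gene was called by edgeR's quasi-likelihood test in these comparisons, with 196 genes at an unadjusted p under 0.05 for PRO against Ctrl and 86 for PCA. The largest difference was that of ELOVL6 between DHA+PRO and DHA, with a log2 fold change of 0.38 that did not pass the test (adjusted p = 1.00). Its DHA by PRO term was 0.44 (interval 0.02 to 0.86, adjusted p = 1.00). At 6 h DHA+PRO replicate 2 came from the higher series of library numbers, whereas DHA replicate 2 came from the lower one. With a term for the library series no member was called in either comparison.

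Time in culture was the second axis of the design. In the groups without DHA, 5 members rose and 1 fell from 6 h to 24 h, beside 48.4% of 12046 genes called, 24.3% higher and 24.1% lower. The 9 libraries without DHA of FADS2 lay between 25.3 and 37.2 RPKM (median 28.4) at 6 h and between 48.8 and 73.8 RPKM (median 71.6) at 24 h, a log2 fold change of 1.17 ± 0.078 (SE, adjusted p = 2.27e-14) or 2.25-fold. SCD rose from a median of 389.9 to 737 RPKM, by 0.86 ± 0.079 (SE, adjusted p = 7.37e-11) on the log2 scale. ELOVL6 rose from 17.2 to 35.3 RPKM, by 0.91 ± 0.069 (SE, adjusted p = 5.27e-13), and FADS1 from 58.4 to 84.8 RPKM, by 0.51 ± 0.052 (SE, adjusted p = 5.84e-10). For these 4 genes no 24 h library without DHA overlapped a 6 h one, which held for 11.3% of all genes. ELOVL5 rose by 0.24 ± 0.063 (SE, adjusted p = 0.00166), ELOVL2 fell, with a log2 fold change of -0.24 ± 0.08 (SE, adjusted p = 0.0147), and FADS3 and ELOVL1, at -0.06 (adjusted p = 0.588) and -0.10 (adjusted p = 0.242), were not called. The 4 genes with the highest rises were those that DHA lowered at 24 h, and both comparisons share the 24 h libraries without DHA.

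With DHA present the medians of these 4 genes were also higher at 24 h than at 6 h. The median over the 9 libraries with DHA went from 316 to 459.8 RPKM for SCD, from 51.5 to 62.8 for FADS1, from 27.5 to 45.4 for FADS2 and from 14.9 to 24.2 for ELOVL6. The change of the pooled DHA effect between the times was -0.50 ± 0.11 (SE, adjusted p = 0.171) for FADS2, -0.41 ± 0.11 (SE, adjusted p = 0.761) for SCD, -0.30 ± 0.098 (SE, adjusted p = 1.00) for ELOVL6 and -0.23 ± 0.073 (SE, adjusted p = 1.00) for FADS1. No member and no gene was called for this change by edgeR's quasi-likelihood test without the replicate block, where 368 genes, these 4 members among them, had an unadjusted p under 0.05. FADS2 was called by the DESeq2 Wald test (adjusted p = 0.0317) and by edgeR's likelihood ratio test (adjusted p = 0.027), 1 of 6 genes in each. With the replicate number as a block, SCD and FADS2 were called (adjusted p = 0.0385 for both), 2 of 8 genes.

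**Figure D3:**
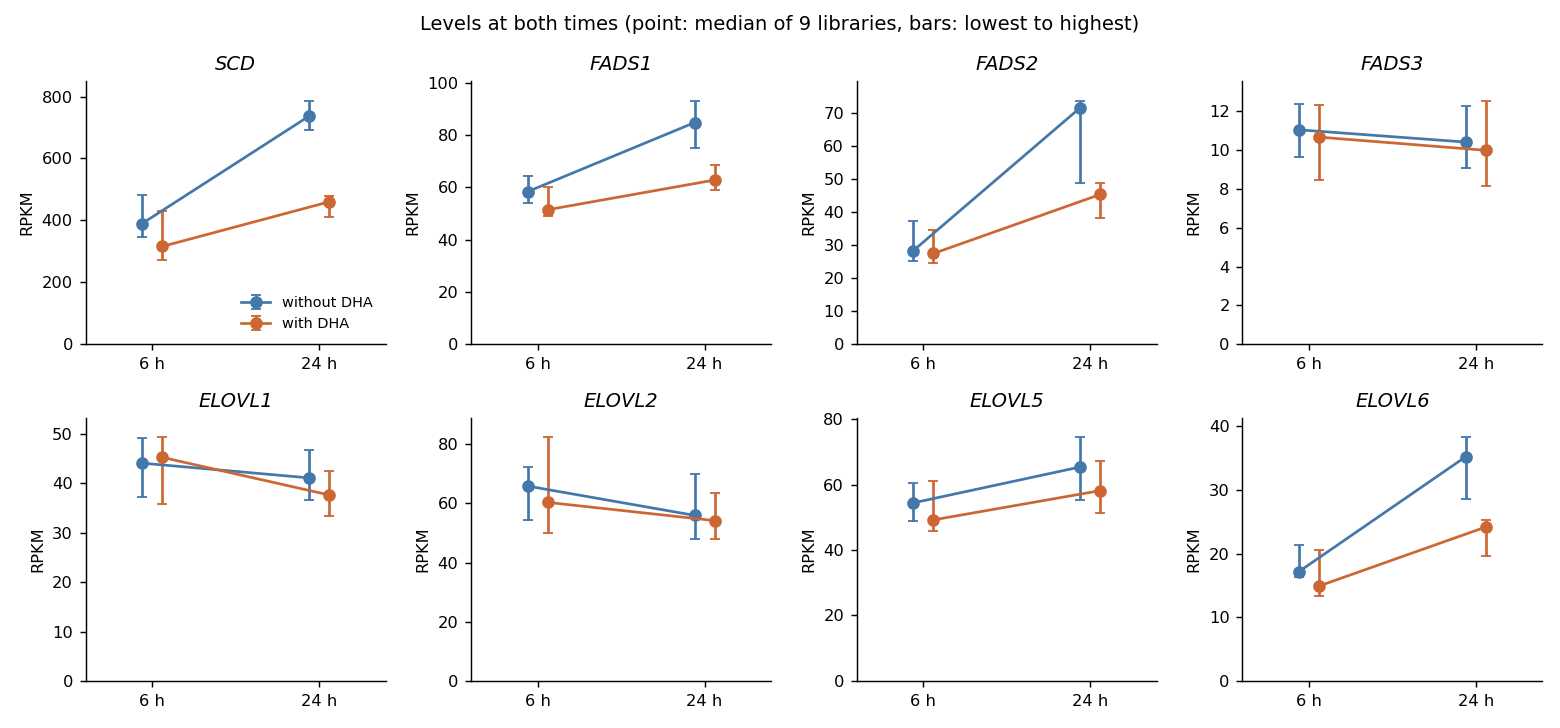
Median RPKM over the 9 libraries without DHA (blue) and the 9 with DHA (orange) at 6 h and 24 h for each gene, with bars from the lowest to the highest library. SCD, FADS1, FADS2 and ELOVL6 rise with time on both lines and end lower with DHA, whereas FADS3 and ELOVL1 stay within overlapping ranges.

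The unequal falls changed the make-up of both enzyme groups at 24 h. Shares were taken of the summed RPKM of the 4 desaturases or of the 4 elongases in a library, so a share can rise because another gene fell. The summed desaturase level was 925 ± 13.7 RPKM in Ctrl and 567 ± 9.5 RPKM in DHA, and the summed elongase level was 190.5 ± 11.5 and 176 ± 17 RPKM (SD, n = 3). Of the desaturase sum, SCD made up 79.5 ± 1.12% with DHA and 81.9 ± 0.852% without (adjusted p = 0.00225), as mean ± SD of 9 libraries, by an exact permutation test with values adjusted over 18 measures. FADS1 made up 11.1 ± 0.552% with DHA and 9.37 ± 0.894% without (adjusted p = 0.0015) in the same exact test and FADS3 made up 1.77 ± 0.271% with DHA and 1.18 ± 0.147% without (adjusted p = 0.0015), while FADS2 stayed at 7.69 ± 0.578% with DHA and 7.54 ± 0.773% without (adjusted p = 0.75). Of the elongase sum, ELOVL6 made up 13.6 ± 1.17% with DHA and 17.7 ± 0.881% without (adjusted p = 0.0015) and ELOVL2 made up 31.3 ± 1.18% with DHA and 28 ± 1.77% without (adjusted p = 0.0045). The shares of ELOVL1 (adjusted p = 0.489) and ELOVL5 (adjusted p = 0.949) did not pass the exact test. The log2 ratio of FADS1 to FADS2 was 0.53 ± 0.11 with DHA and 0.32 ± 0.26 without, which did not pass (adjusted p = 0.122, exact permutation test). It passed without the replicates numbered 1 (adjusted p = 0.0208), and the share of ELOVL2 did not pass without those numbered 2 or 3 (adjusted p = 0.1). At 6 h none of the 9 measures passed with all libraries, and the FADS2 share passed without the replicates numbered 1 (adjusted p = 0.0208, exact test). The exact tests did not pair libraries by replicate number, so differences between experiments counted as spread, and changes at 6 h could be missed. At that time SCD made up 78.4 ± 2.07% with DHA and 80.1 ± 1.23% without (adjusted p = 0.131) and ELOVL6 9.0 ± 1.12% with DHA and 10.2 ± 1.22% without (adjusted p = 0.128) in the exact test.

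**Figure D4:**
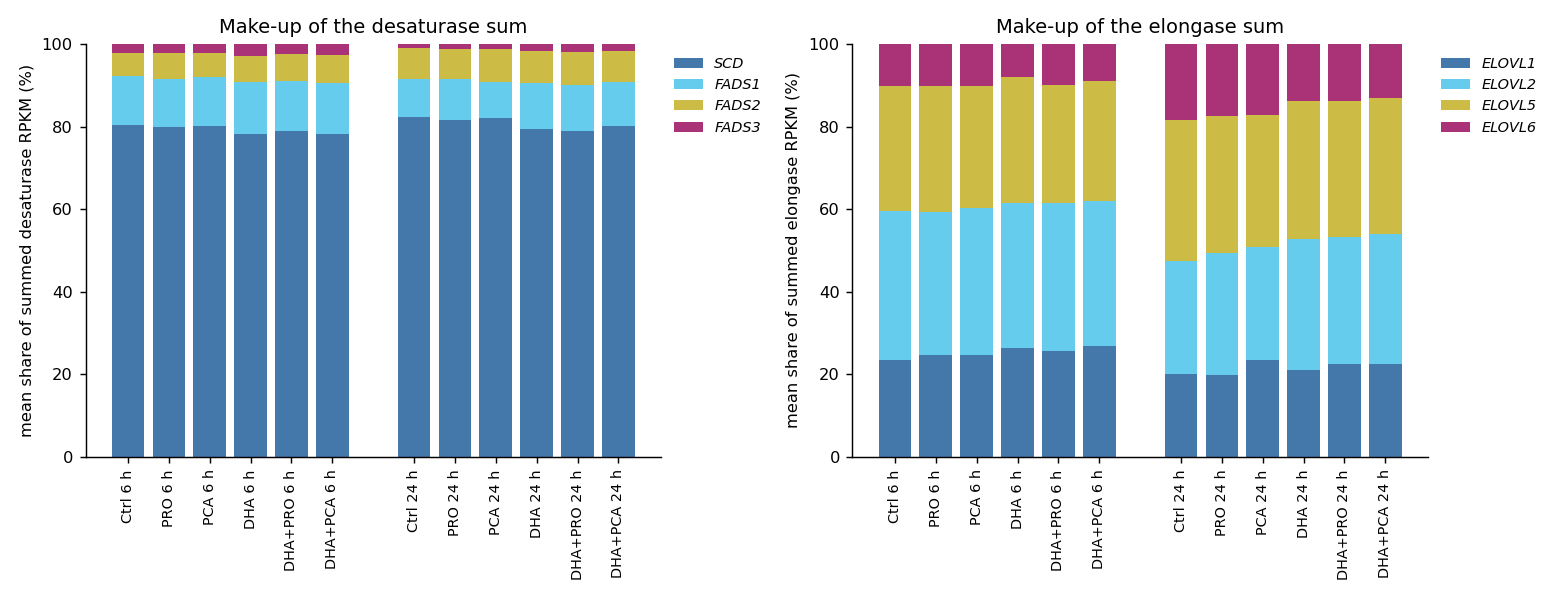
Mean share of each gene in the summed RPKM of the 4 desaturases and of the 4 elongases in each of the 12 groups, as stacked bars that add up to 100%. SCD fills most of every desaturase bar, and the ELOVL6 segment is narrower in the 24 h groups with DHA (13.6% on average) than in those without (17.7%).

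Across the 36 libraries, after the mean of each time was taken out, the 4 genes lowered by DHA varied together. Pearson's r of log2 CPM was 0.90 between SCD and ELOVL6, 0.88 between SCD and FADS1, 0.87 between SCD and FADS2, 0.87 between FADS1 and ELOVL6, 0.77 between FADS1 and FADS2, and 0.73 between FADS2 and ELOVL6. These points share libraries, treatments and depth and are given as a description. The DHA effect was left in, so genes picked as lowered by DHA correlate in part because of it. SCD had r = 0.00 with FADS3 and -0.04 with ELOVL1. ELOVL5 had r = 0.61 with ELOVL6, 0.48 with FADS1, 0.47 with SCD, 0.15 with FADS2 and 0.77 with ELOVL2. ELOVL2 had r = 0.08 with SCD and -0.25 with FADS2.

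Among 12046 genes, the pattern most like that of SCD over these 36 libraries was that of ACSS2 (r = 0.96), which makes acetyl-CoA from acetate, followed by FDFT1 (0.93), the squalene synthase. FADS1 was most like ACLY (0.91), the ATP citrate lyase, and FDFT1 (0.90). FADS2 was most like DHCR7 (0.88), which performs the last step of cholesterol synthesis, and SCD (0.87), and ELOVL6 was most like SCD (0.90) and FADS1 (0.87). The members not called with DHA had other neighbours: QSER1 (0.90) and EEA1 (0.89) for ELOVL2, FNDC3B (0.88) and ACSL4 (0.87) for ELOVL5, HYOU1 (0.73) and GCDH (0.70) for ELOVL1, and TOP3B (0.67) and MLXIP (0.66) for FADS3. The DHA effect was not taken out of these values, so likeness among genes lowered by DHA follows in part from how they were picked.

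The genes within 100 kb of the FADS cluster were read beside its members. DAGLA, MYRF, TMEM258, FEN1, RAB3IL1 and FTH1 were tested, none was called with DHA at 24 h, and their pooled log2 fold changes ran from -0.10 for TMEM258 to 0.17 for FTH1 (adjusted p = 0.268). FADS1 and FADS2, at -0.41 and -0.62, were the only called genes of this stretch. With time in culture without DHA, FADS1 and FADS2 rose beside DAGLA at 0.35 (adjusted p = 0.00951), and FTH1, the ferritin heavy chain, changed by -0.14 (adjusted p = 0.0427).

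Genes that work beside the members were described by lists, chosen like the members with earlier results of these data known. The median pooled log2 fold change with DHA at 24 h was -0.29 over the 8 members, of which 4 fell, and 0.01 over all genes tested, of which 0.942% fell. Of 3 other tested desaturases and elongases (7 listed), ELOVL3, ELOVL7 and DEGS1, none was called and the median was -0.07. Of 5 tested partners in the elongation cycle (6 listed), HSD17B12, the ketoacyl reductase, fell by 0.32 (adjusted p = 0.0115), and the others, with HACD3 at 0.04 (adjusted p = 0.848) nearest the limit, were not called. Of 5 tested genes for the supply of electrons through cytochrome b5 (6 listed), CYB5B fell by 0.23 (adjusted p = 0.00954). CYB5A, which unlike CYB5B is the microsomal cytochrome b5, was at 0.13 (adjusted p = 0.393) and was not called. None of 12 tested genes for the peroxisomal shortening of long chains (13 listed), by which DHA precursors lose carbons, was called, with HSD17B4 at 0.16 (adjusted p = 0.142).

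Of 13 tested genes for fatty acid activation and acyl transfer (15 listed), 2 fell: ACSL3 by 0.51 (adjusted p = 7.97e-06) and ACSL4, which prefers polyunsaturated acids, by 0.44 (adjusted p = 0.00298). Of 8 tested genes for palmitate synthesis (10 listed), which feeds ELOVL6 and SCD, 5 fell, with ACSS2 at -0.76, FASN at -0.66, ACLY at -0.50 and ACACA at -0.38, and the list median was -0.35. The study named several of these as lowered by DHA in the same libraries, so their count is not independent evidence. Of 17 tested transcription factors and genes of SREBP processing (18 listed), 2 fell, SREBF1 by 0.68 (adjusted p = 7.15e-05) and SREBF2 by 0.23 (adjusted p = 0.0478). SREBF1, which encodes SREBP-1, also fell at 6 h, by 0.63 (adjusted p = 0.000183), as did ACSL3 by 0.36 (adjusted p = 0.024). Without the block no member was called at 6 h, and with it SCD and ELOVL6 were. The order of these falls was not tested. No gene of these lists rose with DHA at either time. With time in culture without DHA, 6 of the 8 palmitate genes rose and none fell, beside 5 members that rose and 1 that fell. Of the 17 transcription factors and SREBP genes 6 rose and 3 fell, and of the 13 activation genes 7 rose and 5 fell. Over all 12046 genes tested for time, 24.3% rose and 24.1% fell, 48.4% in all, so these counts are not read as particular to the lists. The hepatocyte markers, of which 1 of 11 fell (TF by 0.20, adjusted p = 0.0317), had a median of -0.07. Of 6 tested markers of other cell types (12 listed), LYZ was the one called.

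**Figure D5:**
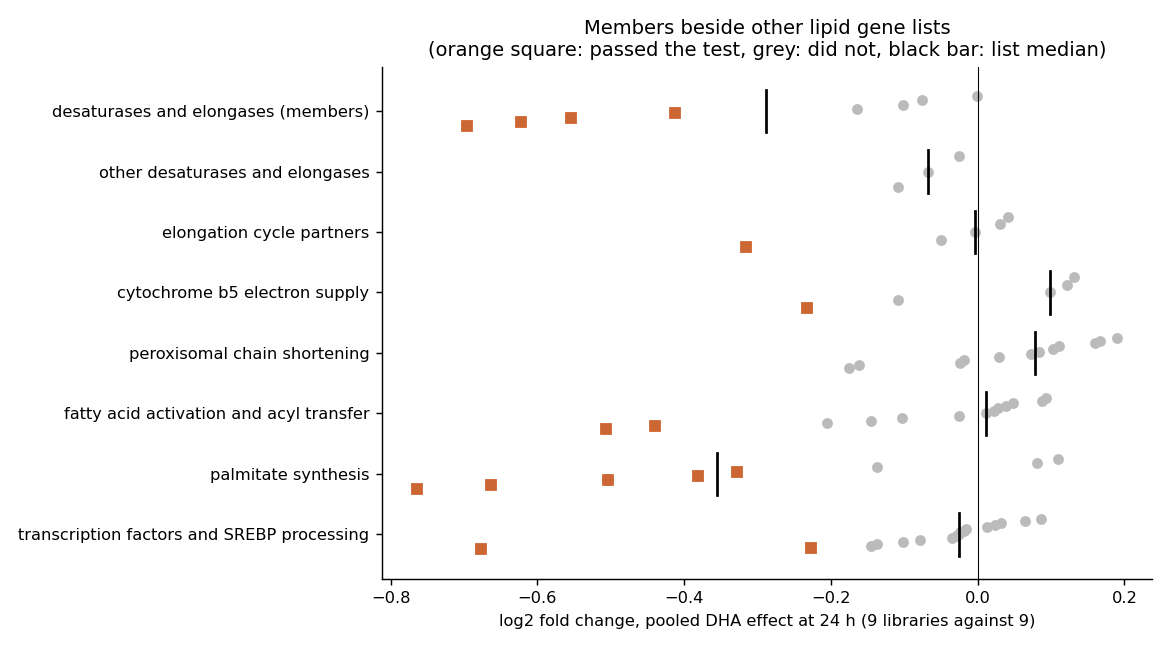
Pooled log2 fold change with DHA against without DHA at 24 h for the 8 desaturase and elongase genes and for 7 lists of lipid genes, one point per tested gene, with orange squares for called genes and a black bar at each list's median. Called genes all lie below 0, and the medians of the members (-0.29) and of palmitate synthesis (-0.35) are the lowest.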

How the data were processed

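The authors treated HepG2 cells, made unstranded TruSeq libraries from pooled culture RNA of each independent experiment, sequenced them on a HiSeq1500, aligned reads to hg19 with STAR and counted reads per gene with the iRNA-seq pipeline, and the deposited table holds these raw counts for 36 samples and 18932 genes (aligner version not given in the sources used here). Groups came from the sample labels, doses from the study's methods. Counts of the 18 libraries of each time, or of all 36 for changes with time, were filtered (filterByExpr), scaled (TMM) and tested in edgeR 4.0.16 (R 4.3.3) by the quasi-likelihood F test with Benjamini-Hochberg adjustment, and exact permutation tests were two-sided. RPKM used the deposited counted lengths, of which 8, none a member's, were 1 base. Counts of the 36 pairs of libraries within groups differed by at least 2.26 times the chi-square that sampling noise gives, so all were kept as separate samples. Members, lists and rules for named genes were chosen with earlier results of these data known: the members are named in full, with the genes of fixed lists, the genes beside the FADS cluster and, for each member, the first 2 of the nearest 3 genes by correlation of log2 CPM centred by time. Simulated counts were used to check the fits. Alternatives were DESeq2 1.42.0, a likelihood ratio test, other scalings and filters, a fit of only the groups compared, the deepest library thinned, a term for the library series, a replicate block and leaving out each library. Some genes of the fixed lists are not reported here by name. Per the file headers, a replicate number stands for the same culture numbers in every group, so it was read as the independent experiment that samples share. After group means were taken out, same-numbered samples of different groups correlated above 0.1 in 36 of 45 pairs at 6 h. At 24 h they did in 34 of 45, so not in all. Differently numbered samples did so in 12 of 90 pairs at 6 h and 5 of 90 at 24 h. Fits with this number as a block are given where they changed a call, and the exact tests had no such block.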

Additional observations from a re-analysis of the deposited data

How the results depend on the processing

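Over 728 counts of members called under alternative settings, 19 moved by over 1.5 times, and of 1621 single values 54 lost their call, 12 gained one and 15 changed sign. With DHA pooled at 24 h, 4 members were called in all 8 other settings and all 18 fits without 1 library, though the genes called numbered 146, 222 by the DESeq2 Wald and edgeR likelihood ratio tests, 367 with the block and 113 to 223 without 1 library. Leaving out libraries gave 1 to 4 members for DHA against Ctrl, 2 to 4 for DHA+PCA against PCA and 2 to 4 for DHA+PRO against Ctrl at 24 h. Fitted with only the groups compared, DHA+PRO against PRO gave 0 members and 2 genes in place of 3 and 27. For the change of the DHA effect with time, the Wald and likelihood ratio tests called 1 member, FADS2 (6 genes each), and the main test called none. The make-up held 5 shares past the test, and 4 to 9 without the replicates of 1 number. The causes were not tested.

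With the replicate block 2 members, SCD and ELOVL6, were called at 6 h both pooled and for DHA against Ctrl, and 2, SCD and FADS2, for the change of the DHA effect with time, also with the block within each time. The block changed no other call of a member, and over the 5 comparisons of DHA groups with single groups at 24 h it called 77 to 135 genes in place of 23 to 47.

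The values that changed sign were near 0: ELOVL2 with DHA at 24 h (0.0026 without the filter, -0.044 to 0.034 without 1 library), FADS3 (-0.069 to 0.0093) and ELOVL1 (-0.0099 to 0.070) with DHA at 6 h, FADS3 and ELOVL1 with time (0.0089 and 0.016 with the block within each time), and the difference in FADS2 share at 24 h (-0.33 to 0.55 percentage points without the replicates of 1 number). Libraries with a median of 7034010 counts gave standard errors of 0.043 to 0.091 log2 units for members pooled at 24 h. A call needed several standard errors: SREBF2 passed the quasi-likelihood test narrowly at -0.23 ± 0.057 (SE, adjusted p = 0.0478). Differences in FADS3, with a standard error of 0.091, could thus go uncalled well beyond that size at this depth and n.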
